A study of Homo sapiens with 15 samples.

Results

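Integrin subunits were followed in the RNA of A549 cells kept in high or normal oxygen. The 10 genes are ITGA2, ITGA3, ITGA5, ITGA6, ITGAV, ITGB1, ITGB4, ITGB5, ITGB6 and ITGB8, and they were taken by symbol from count tables of 43388 genes. A549 is a human lung adenocarcinoma line with an epithelial character, so all samples share one genetic background and no primary alveolar cells were studied. Cells received 1e-05 mM all-trans retinoic acid (ATRA), a vitamin A derivative, or its ethanol vehicle for 24 hours, and then spent 72 hours in 95% oxygen (hyperoxia) or 21% oxygen (normoxia). Hyperoxia with vehicle and normoxia with vehicle had 2 libraries each. Hyperoxia with ATRA and normoxia with ATRA had 3 libraries each. The labels of 2 further hyperoxia libraries and 2 further normoxia libraries name no agent. These 4 are called no-agent libraries.

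Integrins are cell surface receptors built from 1 alpha and 1 beta chain, and the pair decides which matrix protein is bound. ITGB1 pairs with many alpha chains, among them the collagen receptor chain ITGA2, the laminin receptor chains ITGA3 and ITGA6 and the fibronectin receptor chain ITGA5. ITGAV pairs with ITGB1, ITGB5, ITGB6 or ITGB8 to bind vitronectin, fibronectin or latent TGF-beta, and ITGB4 pairs with ITGA6 alone, in the hemidesmosomes that fix epithelial cells to laminin. In lung epithelium these receptors hold cells to the basement membrane and take part in repair after injury.

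Gene counts summed to between 2642377 and 5605072 per library, and 3 counts corresponded to between 0.535 and 1.14 CPM, the unit of counts scaled to a common library size. These floors cover counting error only, whereas the 95% intervals of fold changes come from the edgeR fit and include the spread between libraries. The alveolar type II markers SFTPC, SFTPB, SFTPA1 and SFTPA2 summed to at most 1.30 CPM in any of the 14 libraries, so the defining genes of that cell type were near 0. Leukocyte, endothelial and fibroblast markers summed to at most 15.3, 6.26 and 12.5 CPM. The 6 epithelial markers KRT8, KRT18, KRT7, KRT19, EPCAM and CDH1 summed to between 3317 and 11879 CPM. One library stood apart from the rest before any comparison. Replicate 1 of hyperoxia without agent lay at 199 on the first principal component of log2 CPM, against -35.6 to 9.27 for the other 13, and it had 12657 genes with a count against 16465 to 20108. Among the 10 vehicle and ATRA libraries, replicate 1 of hyperoxia with ATRA lay at 76.6 on the second component, against -33.7 to 12.5 for the others. The labels do not say that replicates came from separate cultures, so p-values measure the spread between these samples, which may be technical. In bulk RNA, fewer cells of a kind and less RNA per cell cannot be told apart.

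Positions are given on GRCh38.p14. ITGA2 lies at chr5:52989352-53094779 and ITGA5 at chr12:54395261-54419266. On chromosome 2, ITGB6 lies at chr2:160099671-160200272, ITGA6 at chr2:172427336-172506459 and ITGAV at chr2:186590056-186680901. ITGA3 lies at chr17:50056110-50090481 and ITGB4 at chr17:75721459-75757818. ITGB5 lies at chr3:124761948-124901418, ITGB1 at chr10:32900318-32958230 and ITGB8 at chr7:20329766-20415754.

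Upstream sequence was available for 8 members, in 13 windows of 250 bases before an annotated start (RefSeq, GRCh38.p14). Windows of ITGA2, ITGA5 and ITGB5 are shown because ITGA2 and ITGA5 were higher in hyperoxia with vehicle and ITGB5 was lower. The bases after each window occur in a GENCODE 44 transcript of the gene. ITGB5 had other windows, which are not shown. Capitals mark GGGCGG or its reverse complement, the core of the motif bound by SP1, and the letters run 5′ to 3′ on the strand of the gene.
ITGA2, chr5:52989102-52989351, plus strand: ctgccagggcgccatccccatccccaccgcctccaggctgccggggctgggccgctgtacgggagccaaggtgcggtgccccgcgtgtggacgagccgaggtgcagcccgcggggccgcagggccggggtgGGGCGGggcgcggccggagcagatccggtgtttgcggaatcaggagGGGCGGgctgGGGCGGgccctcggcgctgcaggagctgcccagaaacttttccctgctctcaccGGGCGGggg
ITGA5, chr12:54419267-54419516, minus strand: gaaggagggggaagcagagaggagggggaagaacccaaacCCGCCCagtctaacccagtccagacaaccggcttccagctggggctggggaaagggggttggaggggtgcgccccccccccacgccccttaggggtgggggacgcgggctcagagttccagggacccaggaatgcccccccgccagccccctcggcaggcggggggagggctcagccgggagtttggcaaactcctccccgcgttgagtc
ITGB5, chr3:124887366-124887615, minus strand: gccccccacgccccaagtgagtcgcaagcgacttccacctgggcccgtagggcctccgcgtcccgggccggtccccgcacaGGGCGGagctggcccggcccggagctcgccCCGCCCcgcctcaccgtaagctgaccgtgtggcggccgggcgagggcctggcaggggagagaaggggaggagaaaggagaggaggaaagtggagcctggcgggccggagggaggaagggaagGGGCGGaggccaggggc
The ITGA2 window held 4 matches, the ITGA5 window 1 and the ITGB5 window 3. Over all members, 7 of the 13 windows held a match on either strand, beside 42.6% of 35116 windows of the same length. The letters TGACTCA, of the AP-1 motif, were in 0 of the 13 windows and in 4.20% of all windows. A match to AGGTCA, the motif of nuclear receptors that include the retinoic acid receptors, was in 1 of the 13, at ITGAV, and in 12.1% of all windows. CACGTG, an E-box, was in 1 of the 13, at ITGA6, and in 6.34% of all. No window held matches to more than 1 of these motifs, and a match describes letters only. GGGCGG matches stood upstream of members that were higher in hyperoxia with vehicle (ITGA2 and ITGA5) and of members that were lower (ITGA6 and ITGB5).

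Levels were compared between genes as CPM per kilobase of the canonical transcript. ITGB1 had the highest value in each of the 6 groups, at means between 320 and 388 CPM per kilobase. ITGA3 came next in 5 groups, at 122 to 259, and ITGB5 came next in normoxia with ATRA, at 134. ITGB5 and ITGA3 overlapped between libraries of normoxia without agent, and ITGB5 and ITGAV between libraries of hyperoxia without agent. Below them came ITGAV, at 38.7 to 62.1, and then ITGA2, ITGA5, ITGA6 and ITGB4, whose order depended on the oxygen exposure. ITGA2 ranked 8th in the 3 normoxia groups and 5th in the 3 hyperoxia groups. Its libraries overlapped with those of ITGA5 in normoxia with ATRA and without agent, and with those of ITGB4 in hyperoxia with ATRA. In hyperoxia without agent they overlapped with those of both ITGA5 and ITGB4. The order of these genes was not tested. ITGA6 and ITGB4 overlapped in each of the 3 normoxia groups. ITGB8 had at most 0.989 and ITGB6 at most 0.588 as group means, and their libraries overlapped in 3 of the 6 groups. Per length, A549 RNA was therefore dominated by the chains ITGB1 and ITGA3 in most groups.

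Shares of the summed level per length differed between the vehicle groups. ITGA2 made up 10.9% to 12.1% of the alpha members in hyperoxia with vehicle and 4.04% to 4.12% in normoxia with vehicle. ITGA6 went the other way, with 5.11% to 5.35% in hyperoxia and 12.6% to 13.7% in normoxia. Among the beta members, ITGB1 held 80.0% to 82.7% in hyperoxia with vehicle and 68.1% to 72.2% in normoxia with vehicle, and ITGB5 held 14.4% to 16.4% and 22.7% to 25.6%. With ATRA, the shares of ITGB1 overlapped between hyperoxia (71.5% to 74.9%) and normoxia (66.6% to 74.1%), and without agent they overlapped as well (76.1% to 82.5% and 69.3% to 76.8%). The shares of ITGB5 with ATRA met at the edge of both groups, at 22.4%. These shares are a description without a test. The summed alpha level was 0.822 and 0.885 times the summed beta level in the 2 libraries of hyperoxia with vehicle, and 0.478 and 0.456 times in those of normoxia with vehicle.

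**Figure D1:**
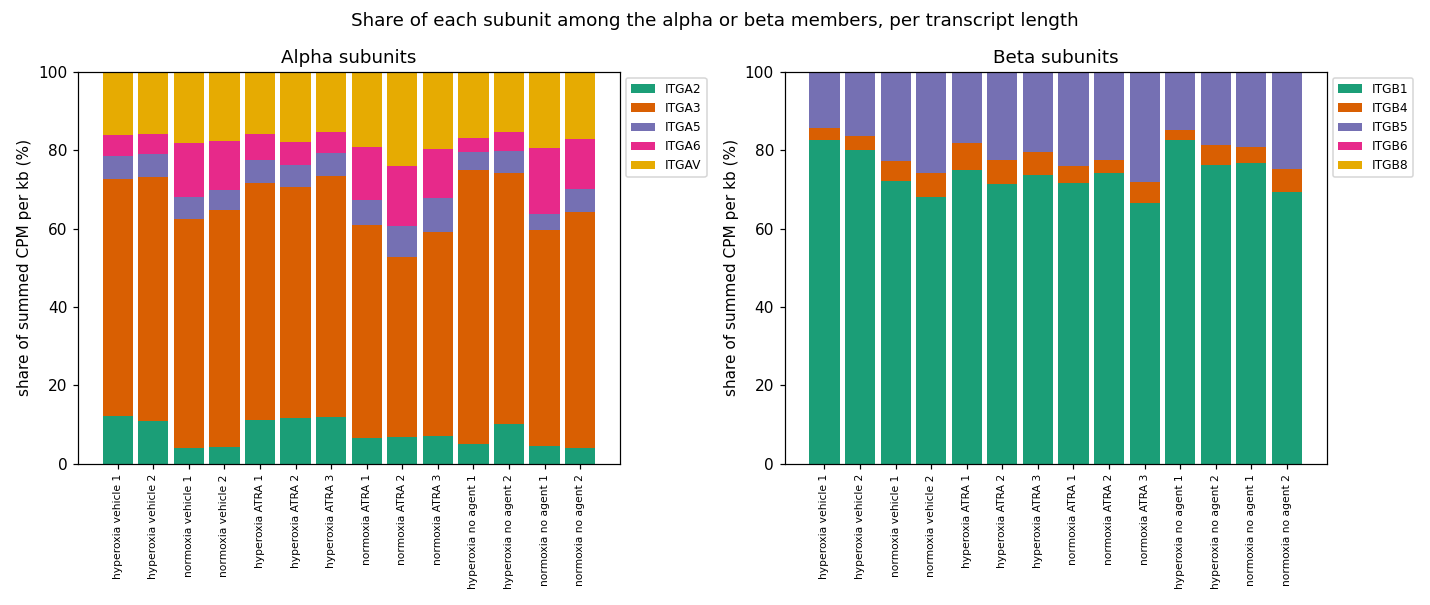
Stacked bars give the share (%) of each subunit in the summed CPM per kilobase of the 5 alpha members (left) and the 5 beta members (right), 1 bar per library. ITGA6 takes a narrower band in every hyperoxia library than in any normoxia library, ITGA2 takes a wider one except in replicate 1 of hyperoxia without agent (4.89%), and ITGB6 and ITGB8 are too small to be seen.

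The comparison of hyperoxia with normoxia among vehicle libraries asked how oxygen alone changed the cells. ITGA2, ITGA3, ITGA5 and ITGAV were higher in hyperoxia and ITGA6, ITGB4 and ITGB5 were lower, so the alpha chains rose apart from ITGA6 and no beta chain did. With edgeR's quasi-likelihood test, 4 of the 9 members tested were called higher and 3 lower at an adjusted p under 0.05, beside 8.68% and 8.81% of 14957 genes. ITGB6 did not pass the filter on low counts and was not tested. The median log2 fold change was -0.02 over the 9 members and 0.01 over all genes tested. The same call on ATRA libraries found 2 members higher and 2 lower, beside 11.4% and 11.3% of genes. Among no-agent libraries it found 4 higher and 2 lower, beside 7.57% and 7.58% of 15339 genes. The no-agent libraries share no sample with the other 2 comparisons, and the median log2 fold change was -0.10 over all genes and 0.63 over the members there. That member median was the value of ITGB8, a gene of low counts, whose interval was -0.91 to 2.16 (edgeR adjusted p = 0.587). The median therefore does not show a rise shared by the members, some of which were higher and some lower. In a fit of the 4 no-agent libraries alone, edgeR called 0 members and 58 genes. At an unadjusted p under 0.05, that fit had 6 members and 2060 genes. DESeq2 on the 14 libraries called 6 members and 2968 genes.

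**Figure D2:**
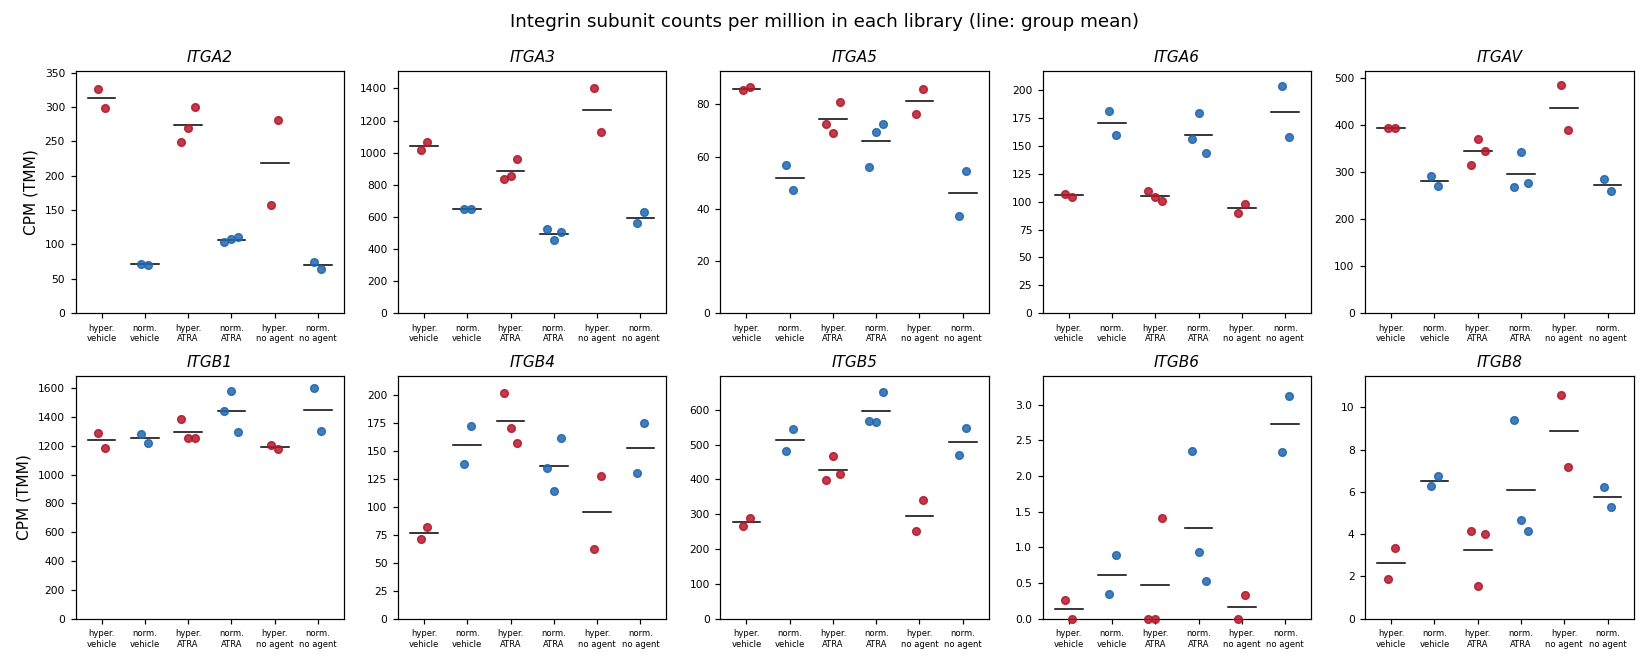
Each panel shows 1 member, with TMM-normalized CPM on a linear axis from 0, a point per library (red hyperoxia, blue normoxia) and a line at the group mean. ITGA2 and ITGA3 lie higher and ITGA6 and ITGB5 lower in every hyperoxia library than in any normoxia library.

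ITGA2, the alpha chain of a collagen receptor, had the widest change of any member. It measured 326 and 299 CPM in hyperoxia with vehicle and 72.3 and 70.8 CPM in normoxia with vehicle. Both hyperoxia libraries were above both normoxia libraries, a 4.37-fold difference. Its log2 fold change was 2.13 (standard error 0.14, edgeR adjusted p = 1.85e-09). With ATRA it measured 249, 270.1 and 300.1 CPM in hyperoxia and 104, 107 and 110.3 CPM in normoxia, again without overlap. The change with ATRA was 1.35 (standard error 0.11, edgeR adjusted p = 2.08e-08). Without agent, it measured 157 and 281 CPM in hyperoxia and 74.1 and 65.0 CPM in normoxia, the lower hyperoxia value being that of the library that stood apart. There the change was 1.65 (standard error 0.21, edgeR adjusted p = 7.03e-05), and 2.01 without that library.

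ITGA3, the alpha chain of a laminin receptor with ITGB1, was the most abundant alpha member. It measured 1017 and 1068 CPM in hyperoxia with vehicle and 649 CPM in both libraries of normoxia with vehicle. The groups did not overlap, and the log2 fold change was 0.68 (standard error 0.13, edgeR adjusted p = 0.000514). With ATRA it measured 837, 853 and 964 CPM in hyperoxia and 527, 455 and 505 CPM in normoxia. That change was 0.83 (standard error 0.10, edgeR adjusted p = 4.55e-06). No-agent libraries measured 1405 and 1127 CPM in hyperoxia and 559.7 and 633 CPM in normoxia, so that the gap was widest there. It came to 1.09 (standard error 0.14, edgeR adjusted p = 6.51e-05).

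ITGA5, the fibronectin receptor chain, measured 85.4 and 86.9 CPM in hyperoxia with vehicle and 56.7 and 47.2 CPM in normoxia with vehicle. The difference on the log2 scale was 0.74 (standard error 0.18, edgeR adjusted p = 0.00609). The call rested on single libraries. Where a group was left with 1 library, the fit took its spread from the other groups. The edgeR adjusted p was 0.0542 and 0.0734 without replicate 1 or 2 of hyperoxia with vehicle and 0.155 without replicate 2 of normoxia with vehicle. With ATRA it measured 72.7, 69.3 and 81.0 CPM in hyperoxia and 56.1, 69.3 and 72.6 CPM in normoxia. Those groups overlapped, and the difference of 0.17 was within an interval of -0.13 to 0.48 (edgeR adjusted p = 0.441). Without agent, it measured 76.5 and 86.0 CPM against 37.2 and 54.7 CPM, a change of 0.82 (standard error 0.21, edgeR adjusted p = 0.0143). Leaving out replicate 1 of normoxia without agent gave 0.53 (edgeR adjusted p = 0.253).

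ITGAV, the alpha chain of vitronectin receptors, measured 393 CPM in both libraries of hyperoxia with vehicle and 291 and 271 CPM in normoxia with vehicle. Its log2 fold change of 0.49 (standard error 0.14, edgeR adjusted p = 0.0169) was the smallest of those called. It was no longer called when any 1 of the 4 vehicle libraries was left out, with edgeR adjusted p from 0.0902 to 0.195. With ATRA, ITGAV measured 316, 371 and 345 CPM in hyperoxia and 268, 343 and 277 CPM in normoxia, with 1 normoxia library inside the hyperoxia range. The difference was 0.22 (standard error 0.11, edgeR adjusted p = 0.184), and it was called at 0.33 (edgeR adjusted p = 0.0357) without that library, replicate 2 of normoxia with ATRA. No-agent libraries measured 484 and 389.9 CPM in hyperoxia and 285 and 259.8 CPM in normoxia. Their change was 0.68 (standard error 0.15, edgeR adjusted p = 0.00539), and edgeR adjusted p was 0.0550 without replicate 1 of hyperoxia and 0.0643 without replicate 2 of normoxia.

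ITGA6, the laminin receptor chain that pairs with ITGB1 or ITGB4, was the alpha member that fell. It measured 107 and 104 CPM in hyperoxia with vehicle and 181 and 160.0 CPM in normoxia with vehicle. The hyperoxia values lay below both normoxia values, and the log2 fold change was -0.69 (standard error 0.15, edgeR adjusted p = 0.00205). With ATRA it measured 109.8, 104 and 100.3 CPM in hyperoxia and 156, 179 and 144 CPM in normoxia. This change was -0.61 (standard error 0.12, edgeR adjusted p = 0.000915). Without agent, ITGA6 measured 89.7 and 98.0 CPM in hyperoxia and 203 and 158 CPM in normoxia, a change of -0.95 (standard error 0.16, edgeR adjusted p = 0.000831). ITGA6 thus fell in all 3 comparisons of oxygen. Its antisense gene ITGA6-AS1 held 5.69% as many counts over the 14 libraries, and 0.368% to 17.8% in single libraries. The counting is not stated to use strand.

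ITGB1, the beta chain shared by most of these receptors, did not pass the test in any comparison. It measured 1292 and 1183 CPM in hyperoxia with vehicle and 1286 and 1221 CPM in normoxia with vehicle, and the values interleaved. The log2 fold change was -0.02, with an interval of -0.28 to 0.25 (edgeR adjusted p = 0.953). With ATRA the difference was -0.15, with an interval of -0.36 to 0.07 (edgeR adjusted p = 0.335). Without agent it was -0.28, with an interval of -0.57 to 0.00 (edgeR adjusted p = 0.169). SNORA86, a small RNA gene within ITGB1, held 3.70% as many counts.

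ITGB5, a beta chain that pairs with ITGAV and binds vitronectin, measured 267 and 288 CPM in hyperoxia with vehicle and 481 and 544 CPM in normoxia with vehicle. On the log2 scale ITGB5 changed by -0.89 (standard error 0.13, edgeR adjusted p = 5.79e-05). ITGB5 was therefore lower while its partner ITGAV was higher. With ATRA it measured 398, 467 and 415 CPM in hyperoxia and 569, 566 and 650.3 CPM in normoxia, a change of -0.48 (standard error 0.11, edgeR adjusted p = 0.00248). No-agent libraries measured 251 and 339.7 CPM in hyperoxia and 469.8 and 547 CPM in normoxia, a change of -0.78 (standard error 0.15, edgeR adjusted p = 0.00266). The 3 groups of hyperoxia lay below the 3 groups of normoxia in every library.

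ITGB4, the hemidesmosome chain, was lower in hyperoxia among vehicle libraries, and its difference among ATRA libraries had the opposite sign. It measured 71.6 and 82.1 CPM in hyperoxia with vehicle and 139 and 173 CPM in normoxia with vehicle, a 2.03-fold lower level in hyperoxia. The log2 fold change was -1.02 (standard error 0.18, edgeR adjusted p = 0.00027). With ATRA, ITGB4 measured 202, 171 and 157 CPM in hyperoxia and 135, 115 and 162 CPM in normoxia, with 1 overlapping pair. That difference was 0.37 (standard error 0.14, edgeR adjusted p = 0.0683), and it was called at 0.48 (edgeR adjusted p = 0.0307) without replicate 3 of normoxia with ATRA and at 0.37 (edgeR adjusted p = 0.0417) with library sets as a block. Without agent, the 2 hyperoxia libraries were at 62.5 and 128 CPM and the normoxia libraries at 131 and 175 CPM. The difference was -0.70 (standard error 0.27, edgeR adjusted p = 0.0918). It was -0.26 without the library that stood apart, and -1.34 (edgeR adjusted p = 0.000104) without the other hyperoxia library. It was also called without the filter on low counts, at -0.73 (edgeR adjusted p = 0.00285).

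**Figure D3:**
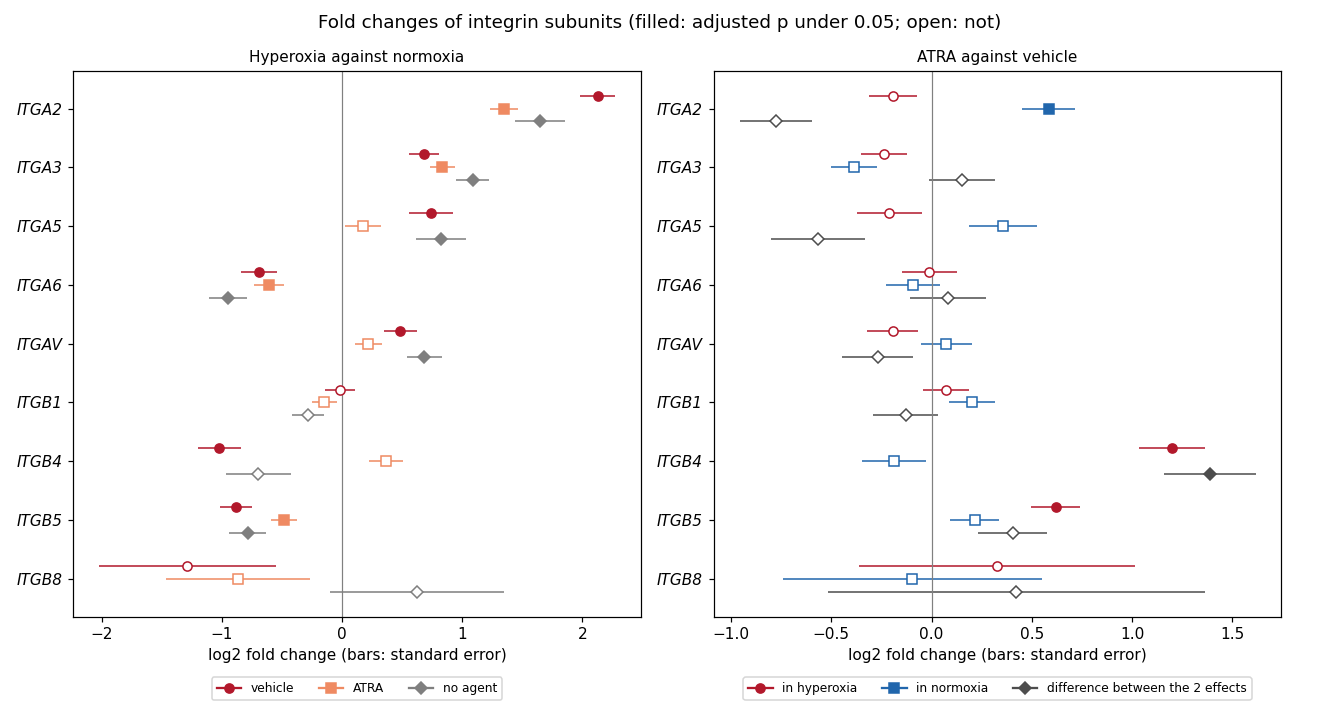
Points give log2 fold changes with standard errors for the 9 members tested, for hyperoxia against normoxia (left) and for ATRA against vehicle with the difference between both ATRA effects (right), filled where the adjusted p was under 0.05. ITGA2 reaches 2.13 on the left, and ITGB4 is at 1.20 in hyperoxia and -0.19 in normoxia on the right.

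The ATRA comparison in hyperoxia asked what ATRA changed in cells under high oxygen. ITGB4 and ITGB5, both lower in hyperoxia with vehicle, were higher with ATRA, and no alpha chain passed the test. With edgeR, 2 of the 9 members were called higher, beside 1.52% of genes, and the genes called lower made up 0.695%. The median log2 fold change was -0.01 over the members and 0.00 over all genes. This comparison shares the libraries of hyperoxia with vehicle with the oxygen comparison, so their values are not independent. ITGB4 measured 202, 171 and 157 CPM with ATRA against 71.6 and 82.1 CPM with vehicle, with no overlap. Its log2 fold change was 1.20 (standard error 0.17, edgeR adjusted p = 0.000187), a 2.30-fold difference. The call was kept when each library was left out in turn, with edgeR adjusted p at most 0.0172 and fold changes from 1.09 to 1.30. ITGB5 measured 398, 467 and 415 CPM with ATRA against 267 and 288 CPM with vehicle. That was a change of 0.62 (standard error 0.12, edgeR adjusted p = 0.00687), with edgeR adjusted p of 0.229 and 0.0906 when replicate 1 or 2 of hyperoxia with vehicle was left out.

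Neither call held against the no-agent libraries. Against the 2 hyperoxia libraries without agent, ITGB4 was higher by 0.91 (edgeR adjusted p = 0.128) and ITGB5 by 0.53 (edgeR adjusted p = 0.119). When the library that stood apart was left out, the differences were 0.46 (edgeR adjusted p = 0.811) and 0.32 (edgeR adjusted p = 0.832), each against a single library at 128 and 339.7 CPM. That library was assumed to vary like the other groups, from which the fit took its spread. With all 14 libraries in the fit and the vehicle kept as control, ITGB5 was not called (edgeR adjusted p = 0.0566). It was called again in that fit when the library that stood apart was left out (edgeR adjusted p = 0.00857).

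The 5 alpha members were between -0.24 and -0.01 on the log2 scale for ATRA against vehicle in hyperoxia. ITGA2 was at -0.19, with an interval of -0.45 to 0.06 (edgeR adjusted p = 0.524). ITGA3 was at -0.24, with an interval of -0.47 to 0.00 (edgeR adjusted p = 0.37). ITGA6, the partner of ITGB4, was at -0.01, with an interval of -0.29 to 0.27 (edgeR adjusted p = 0.988). The intervals of the 3 genes include 0 and do not reach a 2-fold change in either direction. ITGA5 and ITGAV were at -0.21 and -0.19, and ITGB1 at 0.07.

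In normoxia, where the comparison asked what ATRA changed without the oxygen exposure, ITGA2 was the member called. It measured 104, 107 and 110.3 CPM with ATRA and 72.3 and 70.8 CPM with vehicle, a 1.50-fold difference without overlap. With edgeR, 1 of the 9 members was called higher, beside 0.816% of genes. The log2 fold change of ITGA2 was 0.58 (standard error 0.13, edgeR adjusted p = 0.0271). This call was lost in 6 of the 10 fits that left out 1 library. Its edgeR adjusted p was 0.307 and 0.343 without replicates 1 and 2 of normoxia with vehicle, 0.0563 and 0.0542 without replicates 1 and 2 of hyperoxia with vehicle, and 0.0603 and 0.0706 without replicates 1 and 3 of normoxia with ATRA. It was 0.452 with all 14 libraries in the fit. ITGA3 was at -0.39 (standard error 0.11, edgeR adjusted p = 0.131), and DESeq2 called it (adjusted p = 0.00214). ITGB4 was at -0.19, with an interval of -0.52 to 0.14, and ITGB5 at 0.21, with an interval of -0.04 to 0.47.

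The difference between the ATRA effects, which is also the difference between the oxygen effects with ATRA and with vehicle, was tested directly. ITGB4 was called, and it was 1 of 15 genes called with a larger effect in hyperoxia, which are 0.1% of those tested. Its effect in hyperoxia exceeded that in normoxia by 1.39 on the log2 scale (standard error 0.23, edgeR adjusted p = 0.00861). The edgeR adjusted p was 0.126 without replicate 1 of hyperoxia with vehicle and 0.157 without replicate 2 of normoxia with vehicle. With all 14 libraries in the fit it was 0.517, and it was 0.0142 when the library that stood apart was left out of that fit. Against the no-agent libraries as control, the difference was 1.06 (edgeR adjusted p = 0.634). ITGA2 had the opposite sign, at -0.78 (standard error 0.18, edgeR adjusted p = 0.125), and was called by DESeq2 (adjusted p = 0.00169) and by edgeR without the filter on low counts (adjusted p = 0.0386). ITGB5 was at 0.40, with an interval of 0.05 to 0.76 (edgeR adjusted p = 0.621).

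Relative to its only partner, ITGB4 was highest in hyperoxia with ATRA. The ratio of ITGB4 to ITGA6, both per kilobase, was 1.82, 1.62 and 1.55 in the 3 libraries of that group. It was 0.659 and 0.777 in hyperoxia with vehicle, 0.754 and 1.07 in normoxia with vehicle, and 0.852, 0.63 and 1.11 in normoxia with ATRA. The no-agent libraries had ratios of 0.688 and 1.29 in hyperoxia and 0.634 and 1.09 in normoxia. The 3 values of hyperoxia with ATRA lay above the other 11. ITGB4 itself, at 157 to 202 CPM in hyperoxia with ATRA, overlapped with each of the 3 normoxia groups. ITGA6, by which the ratio divides, was at 100.3 to 109.8 CPM there and at 144 to 203 CPM in the normoxia libraries.

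GALK1, which encodes galactokinase, overlaps the end of ITGB4 on the opposite strand over 6350 bases, though the exons of both genes share 0 bases in GENCODE 44. It held between 9.19% and 53.4% as many counts as ITGB4 in a library. GALK1 measured 26.8 and 22.1 CPM in hyperoxia with vehicle, 36.1 and 36.0 CPM in normoxia with vehicle, 18.6, 25.3 and 34.9 CPM in hyperoxia with ATRA and 32.3, 30.0 and 34.9 CPM in normoxia with ATRA. Its log2 fold change was 0.11 for ATRA against vehicle in hyperoxia (standard error 0.26, edgeR adjusted p = 0.914) and -0.57 for hyperoxia against normoxia with vehicle (standard error 0.28, edgeR adjusted p = 0.18). With both genes summed into one feature, every ITGB4 result kept its direction and its side of the threshold.

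**Figure D4:**
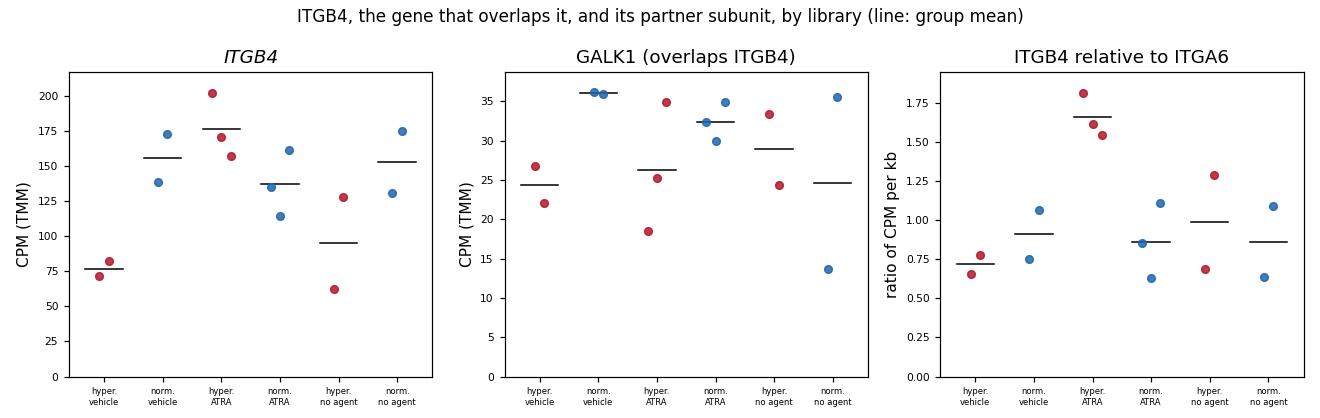
Points are libraries (red hyperoxia, blue normoxia) with a line at the group mean, for ITGB4 in CPM (left), GALK1 in CPM (middle) and the ratio of ITGB4 to ITGA6 per kilobase (right), all from 0. The ratio is 1.55 to 1.82 in hyperoxia with ATRA and at most 1.29 elsewhere.

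ITGB6 and ITGB8, the beta chains that with ITGAV activate latent TGF-beta, were hardly detected. ITGB6 had 0 to 13 counts in a library, and at most 6 counts in any of the 7 hyperoxia libraries. Its highest values were 3.12 CPM in normoxia without agent and 2.35 CPM in normoxia with ATRA. ITGB8 had 4 to 53 counts. It measured 1.86 and 3.35 CPM in hyperoxia with vehicle and 6.26 and 6.74 CPM in normoxia with vehicle, and 10.6 and 7.17 CPM in hyperoxia without agent. Its log2 fold change for oxygen with vehicle was -1.29, with an interval of -2.82 to 0.24 (edgeR adjusted p = 0.268). The interval for ITGB8 is wide, and ITGB6 was not fitted, so no interval is given for it.

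The other 16 integrin genes of the human family were all in the count tables at low counts. In the 14 libraries they had 0 to 158 counts each, and ITGA8 had 0 in every library. The median counts per library were largest for ITGAE, at 71, and ITGA1, at 28.5. ITGB2, the leukocyte beta chain, had 0 to 10 counts. Of these genes, 13 passed the filter, and edgeR called 0 in each of the 6 comparisons, beside 0.14% to 22.7% of all genes. Between 1 and 5 of them had an unadjusted p under 0.05. For oxygen with vehicle this number was 2, beside 4265 of 14957 genes. DESeq2 called ITGA4 for oxygen with vehicle, ITGAL for oxygen with ATRA and ITGAM for oxygen without agent. Over the 13 genes the median log2 fold change was -1.11 for oxygen with vehicle, beside 0.01 over all genes. By contrast 8 of the 10 members had at least 37.2 CPM in every library.

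Genes around the integrins were described by lists. Of 24 matrix ligands, 21 were tested. With oxygen among vehicle libraries, 2 were higher and 3 lower, beside 8.68% and 8.81% of all genes. Vitronectin (VTN), a ligand of ITGAV with ITGB5, changed by -2.19 (standard error 0.37, edgeR adjusted p = 0.000207). Fibronectin (FN1), the ligand of ITGA5 with ITGB1, changed by -0.92 (standard error 0.21, edgeR adjusted p = 0.00383), in the opposite direction to ITGA5. The collagen chain COL6A2 changed by 1.55 (standard error 0.38, edgeR adjusted p = 0.00617) and COL1A1, at 0.265 and 1.41 CPM in hyperoxia, by -3.30 (standard error 0.97, edgeR adjusted p = 0.0202). With ATRA in hyperoxia, 3 ligands were higher and 1 lower, beside 1.52% and 0.695% of all genes. VTN changed by 2.23 (standard error 0.35, edgeR adjusted p = 0.000735), so it had the same signs as ITGB5 in both comparisons, which share the libraries of hyperoxia with vehicle. The laminin chain LAMA3 changed by 0.52 (standard error 0.13, edgeR adjusted p = 0.0437), and the collagen chain COL4A2 by 0.64 (standard error 0.16, edgeR adjusted p = 0.038). The median log2 fold change of the ligands was 0.00 for oxygen with vehicle and 0.30 for ATRA in hyperoxia, beside 0.01 and 0.00 over all genes.

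Inside the cell, 35 genes of a list of integrin adaptors, kinases and regulators were tested. With oxygen among vehicle libraries, 5 were higher and 6 lower, beside 8.68% and 8.81% of all genes. TNS4, a tensin that binds beta chains, had the smallest p and changed by -3.46 (standard error 0.30, edgeR adjusted p = 4.05e-08). KANK2, which binds talin, changed by -1.68 (standard error 0.21, edgeR adjusted p = 5.28e-06) and TNS3, another tensin, by -0.98 (standard error 0.13, edgeR adjusted p = 8.65e-06). SHARPIN, an inhibitor of integrin activation, changed by 0.85 (standard error 0.19, edgeR adjusted p = 0.00239). With ATRA in hyperoxia, the tensins TNS4 and TNS3 were the 2 called, both higher, by 1.76 (standard error 0.29, edgeR adjusted p = 0.000996) and 0.58 (standard error 0.12, edgeR adjusted p = 0.00687). Over all genes, 1.52% were called higher there. The list's median was -0.18 for oxygen and 0.06 for ATRA, beside 0.01 and 0.00 over all genes.

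Of 7 hemidesmosome genes beside ITGB4 and ITGA6, 2 were higher with oxygen among vehicle libraries, PLEC, which encodes plectin, by 0.62 (standard error 0.14, edgeR adjusted p = 0.0034) and COL17A1 by 3.25 (standard error 1.10, edgeR adjusted p = 0.0446). COL17A1 was at 6.63 and 7.77 CPM in hyperoxia against 0 and 1.24 CPM in normoxia. Over all genes, 8.68% were called higher and 8.81% lower with oxygen among vehicle libraries. With ATRA in hyperoxia, 1 of the 7 was higher, LAMA3 as given above, and 1 lower, beside 1.52% and 0.695% of all genes. Among 9 genes of latent TGF-beta, 6 were tested, and with oxygen LTBP1 changed by -0.83 (standard error 0.22, edgeR adjusted p = 0.0108) and TGFB1 by 0.55 (standard error 0.18, edgeR adjusted p = 0.0317). With ATRA in hyperoxia, edgeR called 0 of the 6, with 3 at an unadjusted p under 0.05, and DESeq2 called LTBP3 and TGFB2.

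Epithelial markers, like ITGB4 and ITGB5, were lower in hyperoxia with vehicle than in normoxia with vehicle, and higher with ATRA in hyperoxia. Their summed level was 3317 and 3495 CPM in hyperoxia with vehicle, 7669 and 8567 CPM in normoxia with vehicle and 5516 to 7001 CPM in hyperoxia with ATRA. In normoxia with ATRA it was 8621 to 11879 CPM, above hyperoxia with ATRA. ITGB4 instead had its highest group mean in hyperoxia with ATRA, at 177 CPM against 137 CPM in normoxia with ATRA. Single markers differed from that sum. For the difference between the ATRA effects, edgeR called 1 of the 6 higher, as it did ITGB4, beside 0.1% of genes. DESeq2 called KRT7 there. With oxygen among ATRA libraries, edgeR called 1 marker higher and 4 lower, beside 11.4% and 11.3% of genes. With edgeR, 4 of the 6 markers were lower with oxygen among vehicle libraries, beside 8.81% of genes. With ATRA in hyperoxia, 5 of the 6 were higher, beside 1.52% of genes. The part of this shift in the results for ITGB4 and ITGB5 was not tested.

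For the members called among the vehicle and ATRA libraries, the genes most alike in pattern were found by the root mean square difference of centred log2 CPM over the 6 group means, among 15330 other genes. For ITGA2 they were NFKBIE, RUNX1 and GFRA1, at 0.12 to 0.16. For ITGB4 they were CDH6, SLC6A9 and LOC107984251, all at 0.12. ITGB5 had PSME2, GSTP1 and GOLM1, and ITGA6 had GULP1, CPNE3 and TRIM37. ITGA3 was most like DR1, ZFP36 and RTL10, ITGA5 like ZNF185, SDR39U1 and TRMT61A, and ITGAV like RCC1L, LOC112268437 and ZNF408. Among the members themselves, ITGA5 and ITGAV were the closest pair, at 0.16. These distances are a description over 6 group means.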

How the data were processed

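RNA-seq of A549 cells was measured in 15 libraries from a stranded kit. The submitters' notes name Trimmomatic 0.38, HISAT2, HTSeq and the build hg38, and the files deposited by the authors hold whole read counts for each gene symbol, not normalized. The annotation release, and whether counting used strand, are not given in the sources used here. Rows that name no gene held 75.2% to 78.4% of each library and were left out.

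Counts were filtered with filterByExpr (minimum count 10, minimum total 15), normalized by TMM and fitted with edgeR 4.0.16 (quasi-likelihood) in R 4.3.3. The 10 vehicle and ATRA libraries were fitted in 4 groups (14957 genes), and all 14 grouped libraries in 6 groups (15339 genes) for the no-agent comparison and for CPM. P-values were adjusted by Benjamini-Hochberg over all genes, with calls at 0.05. Log2 CPM used a prior count of 2, and intervals are 95%. DESeq2 1.42.0 was an alternative. The procedure was tested on simulated data. Levels per kilobase used canonical transcripts of GENCODE 44, and positions and upstream sequences are from RefSeq GRCh38.p14. Windows for ITGA3 and ITGB4 and protein sequences were not analysed here.

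Named genes are the members, genes overlapping them, the other 16 integrin genes, at most 4 called genes per list and comparison, and the 3 most alike genes of each member called. A gene of the ligand and hemidesmosome lists is not reported here. Genes that DESeq2 alone called were named after their values were seen. The members and lists were chosen with earlier results of these data known. Other alternatives were RLE size factors, no filter, only the groups compared, 14 libraries, other controls, library sets inferred from the library numbers as a block, ITGB4 with GALK1, and each library left out. Leaving out the library that stood apart was added after seeing the data. A library whose labels gave no group entered no comparison. Plots were drawn with matplotlib 3.10.9.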

Additional observations from a re-analysis of the deposited data

Results flagged for a closer look

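In the main fit, the effect of ATRA on ITGB4 differed between the oxygen exposures. ATRA against vehicle was 1.20 on the log2 scale in hyperoxia and -0.19 in normoxia, a difference of 1.39 (standard error 0.23, edgeR adjusted p = 0.00861, interaction term). ITGB4 was higher with ATRA in 3 of 3 hyperoxia libraries than in either vehicle library, and the ATRA and vehicle libraries of normoxia overlapped. Over 10 alternatives to the main fit the difference ranged from 0.62 to 1.39, and 6 of them kept the call. The call was lost with all 14 libraries in the fit, with pooled controls and with the no-agent libraries as control. Over the fits that each left out 1 library, the difference ranged from 1.21 to 1.53 and the edgeR adjusted p from 0.00457 to 0.157.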

How the results depend on the processing

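Over the alternatives that kept all libraries of a fit, and those added, 415 of 463 single-member values kept their direction and their side of the threshold, 20 lost a call, 6 gained one and 22 changed sign. Over the fits that left out 1 library, 545 of 576 did so, 20 lost a call, 3 gained one and 8 changed sign. The causes were not tested. None of the values that changed sign was called in the report.

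Oxygen with vehicle called 5 to 7 members and 1386 to 3175 genes over the fits without 1 library, oxygen with ATRA 4 to 5 and 2715 to 3359, and oxygen without agent 5 to 7 and 969 to 7364. ATRA in hyperoxia called 1 to 2 members and 83 to 449 genes, ATRA in normoxia 0 to 1 and 56 to 267, and the difference of the ATRA effects 0 to 1 and 4 to 28. Without replicate 1 of hyperoxia with ATRA, these 3 counts of members stayed at 2, 1 and 1, beside 218, 267 and 23 genes.

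DESeq2 called 2 members and 268 genes for ATRA in normoxia, and 2 members and 103 genes for the difference of the effects. Without the filter on low counts, 522, 300 and 91 genes were called for ATRA in hyperoxia, in normoxia and the difference, which called 2 members. With only the groups compared, oxygen with vehicle called 4665 genes. Oxygen without agent then called 0 members (6 at an unadjusted p under 0.05) and 58 genes. ATRA in normoxia called 0 members (2 at an unadjusted p under 0.05) and 206 genes. With 14 libraries, oxygen called 1420 genes with vehicle and 1975 with ATRA. ATRA in hyperoxia called 1 member and 116 genes, ATRA in normoxia 0 members (2 at an unadjusted p under 0.05) and 70 genes, and the difference 0 members (2 at an unadjusted p under 0.05) and 4 genes. Results of that fit without the library that stood apart are given above for ITGB4 and ITGB5. It left 1 library in hyperoxia without agent.

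With vehicle and no-agent libraries as 1 control, oxygen called 2073 genes with ATRA and 3571 in the pooled controls, and ATRA in hyperoxia 182 genes. ATRA in normoxia called 0 members (3 at an unadjusted p under 0.05) and 160 genes. The difference called 0 members (4 at an unadjusted p under 0.05) and 5 genes. ITGA2, ITGA6 and ITGB8 changed sign for ATRA in hyperoxia (0.028, 0.060 and -0.80), ITGA3 and ITGB8 for the difference (-0.075 and -0.80), and ITGB8 for oxygen (-0.10).

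With the no-agent libraries as control, ATRA in hyperoxia called 0 members (5 at an unadjusted p under 0.05) and 66 genes, ATRA in normoxia 0 members (3 at an unadjusted p under 0.05) and 67 genes, and the difference 0 members (3 at an unadjusted p under 0.05) and 3 genes. The values that changed sign were ITGA2, ITGA6 and ITGB8 for ATRA in hyperoxia (0.32, 0.16 and -1.42), ITGB1 and ITGB8 in normoxia (-0.011 and 0.079), and ITGA3, ITGB1 and ITGB8 for the difference (-0.25, 0.13 and -1.50). Without the library that stood apart, those controls gave 0 members (2 at an unadjusted p under 0.05) and 29 genes for ATRA in hyperoxia and 0 members (3 at an unadjusted p under 0.05) and 3 genes for the difference, and the values with changed sign were ITGA6 and ITGB8 in hyperoxia (0.092 and -1.10), ITGB1 and ITGB8 in normoxia (-0.016 and 0.075), and ITGA3, ITGB1 and ITGB8 for the difference (-0.084, 0.15 and -1.17).

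With the library sets as a block, ITGB8 changed sign for ATRA in hyperoxia (-0.0021). These sets were inferred from the library numbers and are no pairing of replicates. No paired analysis was possible because the labels give no replicate numbers, and those used here only name libraries.

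Values that changed sign when 1 library was left out ranged from -0.11 to 0.015 (ITGB1, oxygen with vehicle), -0.049 to 0.017 and -0.023 to 0.82 (ITGA6 and ITGB8, ATRA in hyperoxia), -0.044 to 0.14 and -0.56 to 0.12 (ITGAV and ITGB8, ATRA in normoxia) and -0.0067 to 0.17 (ITGA6, difference). The groups of 2 or 3 libraries limit the precision of every fold change, and ITGB6 and ITGB8 are limited by their counts.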

Other observations

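The library with a label for adipogenic differentiation and a title of hyperoxia entered no group. It had 4415705 gene counts. ITGA2 measured 256 CPM and ITGA3 1131 CPM in it, ITGA6 94.7 CPM and ITGB5 313 CPM. ITGA5 measured 88.8 CPM, ITGAV 381 CPM, ITGB1 1190 CPM, ITGB4 102 CPM and ITGB8 2.42 CPM, and ITGB6 had 0 counts.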
